A study of Homo sapiens with 8 samples.

Results

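The 9 genes described here encode the oxidative stress factor NRF2 (NFE2L2), its repressor KEAP1, the cystine transporter SLC7A11, both subunits of the enzyme that begins glutathione synthesis (GCLC and GCLM), and 4 enzymes of antioxidant defence (NQO1, HMOX1, TXNRD1 and GPX4). They were examined in ARID1A knockout cells and control cells of MDA-MB-231, a cell line from triple-negative breast cancer. ARID1A belongs to the SWI/SNF complex, which moves nucleosomes and contacts DNA through this subunit. Chromatin was immunoprecipitated for histone H3 acetylated at lysine 27 (H3K27ac), which marks promoters and enhancers in use. The 8 libraries were 2 ARID1A knockout immunoprecipitates, 2 control immunoprecipitates, 2 ARID1A knockout inputs and 2 control inputs, with no treatment named. The labels did not say how the knockout was made, whether it was a clone or a pool, or whether replicates were separate cultures. Their characteristics and titles gave H3K27ac as the target, but the protocol text named an H3K4me3 antibody, and peaks are called acetylated here after the characteristics.

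Each genotype had a single peak list, called on its immunoprecipitate against its input. A value is therefore given once for each genotype, without an error between replicates, and the genotypes could not be tested against each other. Peaks were taken from each list if they touched the RefSeq span of a gene or the 50 kb on either side of it. This gave 54 of the 42552 peaks of the knockout list and 60 of the 39797 peaks of the control list. A peak was shared if it overlapped a peak of the other list by at least 1 bp, and otherwise knockout-only or control-only. Pileup is the fragment coverage in the peak, and fold is its enrichment over a background level set by the input of its genotype. Both are the authors' values, and they describe and rank peaks within a list. The median peak of the knockout list had a pileup of 32.0 and a fold of 5.35, and that of the control list a pileup of 22.7 and a fold of 5.18. The median −log10 q was 15.0 in the knockout list and 10.6 in the control list. As a check of the cell type, all 5 mesenchymal and basal markers (VIM, CD44, AXL, CAV1, EGFR) had a peak at a gene start or end in both lists. So did 4 of 5 luminal markers (not PGR) and 1 of 5 blood cell markers (SPI1, which had no listed start and a peak at its lower-coordinate end only). The presence of a peak thus did not set the mesenchymal and basal markers apart from the luminal ones.

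In unstressed cells KEAP1 binds NRF2 and delivers it to a CUL3 ubiquitin ligase for degradation. Oxidants and electrophiles modify KEAP1, after which NRF2 accumulates, pairs with a small MAF protein and binds antioxidant response elements in the genes of glutathione and thioredoxin metabolism. The pathway protects tumour cells from lipid peroxidation and ferroptosis. In ovarian cancer cells, ARID1A deficiency has been linked to low SLC7A11 expression and low glutathione.

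The promoters with letters of the antioxidant response element are shown because every start they belong to lay under a peak in both genotypes. The motif TGACNNNGC was searched on both strands of the RefSeq promoter windows (GRCh38.p14), which run from 250 bases before a start to 50 after it. NFE2L2, KEAP1, GCLC, GCLM, NQO1, TXNRD1 and GPX4 had 12 such windows, of which 4 held a match, against 13.4% of 34961 windows over all genes. The 4 windows belonged to 3 of these 7 genes. Sequence outside the windows was not searched, so a gene without a match may hold the motif elsewhere. All 12 starts lay inside a peak of the knockout list and inside a peak of the control list. The 250 bases before the start are printed 5′ to 3′ on the strand of the gene, with matches in capitals.
GCLM, chr1:93909431-93909680, minus strand: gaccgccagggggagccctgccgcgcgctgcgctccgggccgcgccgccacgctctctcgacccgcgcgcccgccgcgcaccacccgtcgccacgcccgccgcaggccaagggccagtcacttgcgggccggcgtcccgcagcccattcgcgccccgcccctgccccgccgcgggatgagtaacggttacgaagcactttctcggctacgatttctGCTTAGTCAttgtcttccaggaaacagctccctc
KEAP1, downstream start, chr19:10502772-10503021, minus strand: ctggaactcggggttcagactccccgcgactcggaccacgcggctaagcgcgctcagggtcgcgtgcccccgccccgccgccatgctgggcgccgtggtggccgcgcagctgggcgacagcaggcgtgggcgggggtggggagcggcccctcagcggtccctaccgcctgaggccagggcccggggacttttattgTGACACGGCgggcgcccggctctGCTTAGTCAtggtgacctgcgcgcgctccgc
TXNRD1, upstream start, chr12:104215529-104215778, plus strand: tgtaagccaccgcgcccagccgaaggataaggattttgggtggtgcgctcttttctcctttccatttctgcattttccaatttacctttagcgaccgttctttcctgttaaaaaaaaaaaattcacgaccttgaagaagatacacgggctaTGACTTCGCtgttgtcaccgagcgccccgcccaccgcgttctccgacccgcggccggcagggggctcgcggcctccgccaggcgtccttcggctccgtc
TXNRD1, downstream start, chr12:104286782-104287031, plus strand: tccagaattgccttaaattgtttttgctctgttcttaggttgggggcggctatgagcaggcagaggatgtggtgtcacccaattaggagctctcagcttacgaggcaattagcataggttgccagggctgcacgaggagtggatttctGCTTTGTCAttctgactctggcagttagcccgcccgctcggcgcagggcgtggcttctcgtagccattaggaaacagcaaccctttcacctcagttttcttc
GCLM and the downstream start of KEAP1 carried the same 10 letters, TGACTAAGCA on the strand opposite to the gene. At the downstream start of TXNRD1 the letters were TGACAAAGCA, also on the opposite strand. The longer form of the motif, with an A added at its 3′ end, was therefore present in 3 of the 12 windows, against 3.18% of all windows. The upstream TXNRD1 window held a second match of the shorter motif that runs into the start itself and is not capitalised. The AP-1 motif TGANTCA, which can overlap the antioxidant response element, was in 0 of the 12 windows and in 7.68% of all windows. A match of letters is a description and not evidence of binding.

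All 9 genes had a peak at the start in both genotypes. Where the table of starts held no entry (SLC7A11 and HMOX1), both ends of the gene span were used. Of the 7 genes with a listed start, all 7 had a peak there in both lists. Over all 15812 protein-coding genes with a listed start, 63.7% had a peak within 1 kb of a start in both lists, 1.29% in the knockout list alone and 1.49% in the control list alone. The start peaks of 5 genes lay in the upper 5% of the knockout list by fold, and so did those of 5 genes in the control list. These were the same genes in each list: KEAP1, NFE2L2, NQO1, TXNRD1 and GPX4. The 5% refers to all peaks of a list, at starts or elsewhere. How many start peaks of all genes lay in it was not counted. TXNRD1, whose listed starts lay under different peaks, was ranked by the one with the higher fold, over its upstream start. The peak over its downstream start lay at percentile 93.2 of the knockout list and 78.2 of the control list, outside the upper 5% of both. SLC7A11, GCLM, GCLC and HMOX1 held the 4 lowest places among the 9 in both lists.

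**Figure D1:**
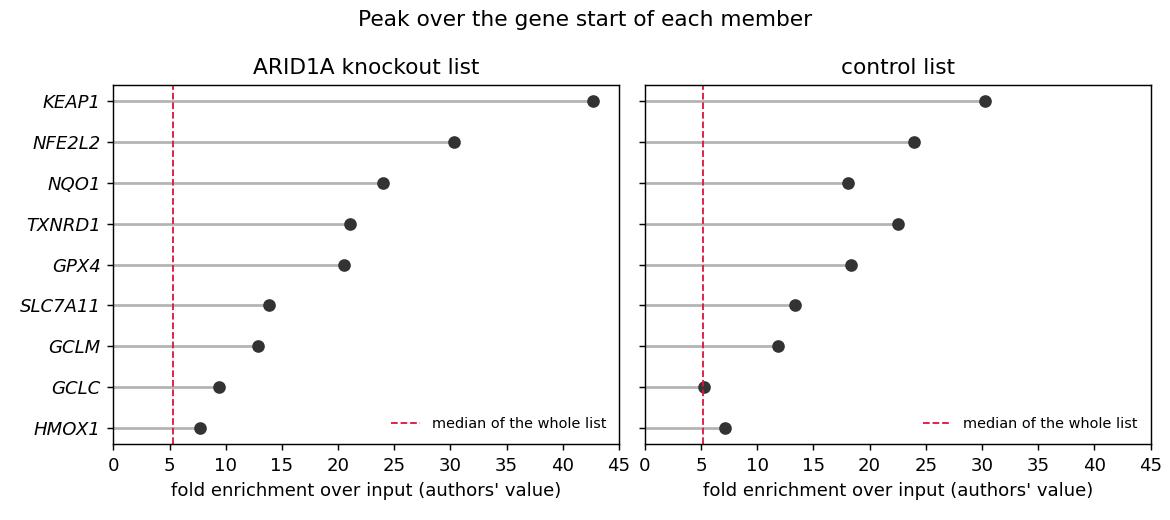
Fold enrichment over input (x axis, the authors' value, no unit) of the peak over the start of each gene (rows), in the ARID1A knockout list on the left and the control list on the right; each point is 1 peak and the dashed line is the median of the whole list. KEAP1 stands highest in both panels (42.7 in the knockout list and 30.3 in the control list), and the GCLC point of the control list (5.27) lies close to that list's median. TXNRD1 is shown by the peak over its upstream start.

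Among the regulators, NFE2L2 (chromosome 2, 177230303 to 177264727, hg38, minus strand) carried a strong start peak. It spanned 177260364 to 177266043 in the knockout list, with a pileup of 234 and a fold of 30.3 (percentile 99.4 of the list). In the control list it spanned 177259672 to 177266070, with a pileup of 135 and a fold of 23.9 (percentile 99.5). Inside the gene lay a broad stretch of acetylation, which the caller divided differently in the lists. The knockout list had a peak of 15.5 kb (177237924 to 177253383, pileup 82.0, fold 9.92) and a weak one of 0.68 kb (177256804 to 177257483, pileup 16.3, fold 2.61). Both overlapped 1 control peak of 19.1 kb (177238853 to 177257905, pileup 65.8, fold 10.7). NFE2L2 had no knockout-only peak and 3 control-only peaks. One lay in the gene (177236037 to 177237725, pileup 13.5, fold 2.55), 199 bp from the broad knockout peak. The others lay on the side of HNRNPA3, an RNA-binding protein gene: 177225533 to 177227148 (pileup 10.6, fold 2.56) and 177187433 to 177188971 (pileup 29.4, fold 5.07). The last was the strongest control-only peak of the 9 genes, at percentile 49.0 of its list. Peaks of the window summed to 27.2 kb in the knockout list and 38.8 kb in the control list, and 96.6% of the knockout length was covered by control peaks.

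KEAP1 (chromosome 19, 10486125 to 10503356, minus strand) had the start peak with the highest fold of the 9 genes in both lists. In the knockout list it spanned 10500821 to 10503862, with a pileup of 300.3 and a fold of 42.7 (percentile 99.97). In the control list it spanned 10500840 to 10503904, with a pileup of 170 and a fold of 30.3 (percentile 99.94). Both listed starts of the gene lay inside it, and control peaks covered 99.4% of the knockout peak. The window held 1 knockout-only peak, of 500 bp (10483504 to 10484003, pileup 20.4, fold 2.53), which lay 2.12 kb beyond the 3′ end of the gene. The other peaks of the window were shared and lay closest to S1PR5, a sphingosine-1-phosphate receptor gene, and ATG4D, an autophagy protease gene.

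SLC7A11 (chromosome 4, 138164097 to 138242349), which exchanges glutamate for extracellular cystine, had the widest peak of the 9 genes in both lists. In the knockout list a peak of 31.3 kb (138229136 to 138260434, pileup 73.1, fold 13.9) covered the higher-coordinate end of the gene. The control peak there was 26.4 kb wide (138233974 to 138260379, pileup 54.5, fold 13.4), and a weak peak of 416 bp (138232272 to 138232687, fold 2.67) lay where the knockout peak reached further into the gene. The broad control peak lay wholly inside the broad knockout peak. A second shared peak lay inside the gene, of 4.95 kb in the knockout list (138198340 to 138203285, pileup 18.9, fold 4.42) and of 4.37 kb in the control list (138198998 to 138203370, pileup 15.2, fold 4.07). The remaining peaks at SLC7A11 were weak and differed between the lists. Its 3 knockout-only peaks had folds of 2.91 (138191891 to 138193332), 2.53 (138221951 to 138222696) and 2.76 (138225719 to 138226176), with pileups of 11.2 to 12.8. Its 5 control-only peaks had pileups of 7.01 to 9.23. They lay at 138158415 to 138158727 (fold 2.56), 138176699 to 138177770 (2.68), 138187205 to 138188425 (2.65), 138196238 to 138196942 (2.97) and 138206030 to 138206816 (2.56). All 8 lay at or below percentile 15.7 of their own list.

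The genes of glutathione synthesis had start peaks of lower fold than NFE2L2 and KEAP1 in both lists. GCLC (chromosome 6, 53497341 to 53545101, minus strand), the catalytic subunit of glutamate-cysteine ligase, had a start peak of 1.32 kb in the knockout list (53544140 to 53545462, pileup 61.3, fold 9.40, percentile 71.5). The start peak of the control list was 1749 bp wide (53543801 to 53545549, pileup 20.3, fold 5.27, percentile 50.8). A shared peak just upstream had a higher fold in each list: 10.2 in the knockout list (53547127 to 53549066, pileup 92.7) and 6.49 in the control list (53547301 to 53548800, pileup 25.6). Another shared peak lay beyond the 3′ end, with a fold of 3.52 in the knockout list and 3.58 in the control list. The single knockout-only peak (53496705 to 53497382, pileup 24.5) touched the 3′ end of the gene and had a fold of 2.07, at percentile 0.11 of its list.

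GCLM (chromosome 1, 93885199 to 93909430, minus strand), the modifier subunit, had a start peak of 6.04 kb in the knockout list (93904068 to 93910111, pileup 77.1, fold 12.8, percentile 82.4). The control start peak was 2.85 kb wide (93907028 to 93909877, pileup 62.9, fold 11.9, percentile 85.8). The knockout peak extended further into the gene and there also covered a weak control peak of 536 bp (93904645 to 93905180, pileup 11.4, fold 2.21, percentile 0.083). GCLM had no peak of 1 list alone. The highest folds of its window, 17.3 in the knockout list (93845161 to 93848470) and 14.5 in the control list (93845257 to 93848730), belonged to a shared peak closest to BCAR3, an adaptor protein gene.

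**Figure D2:**
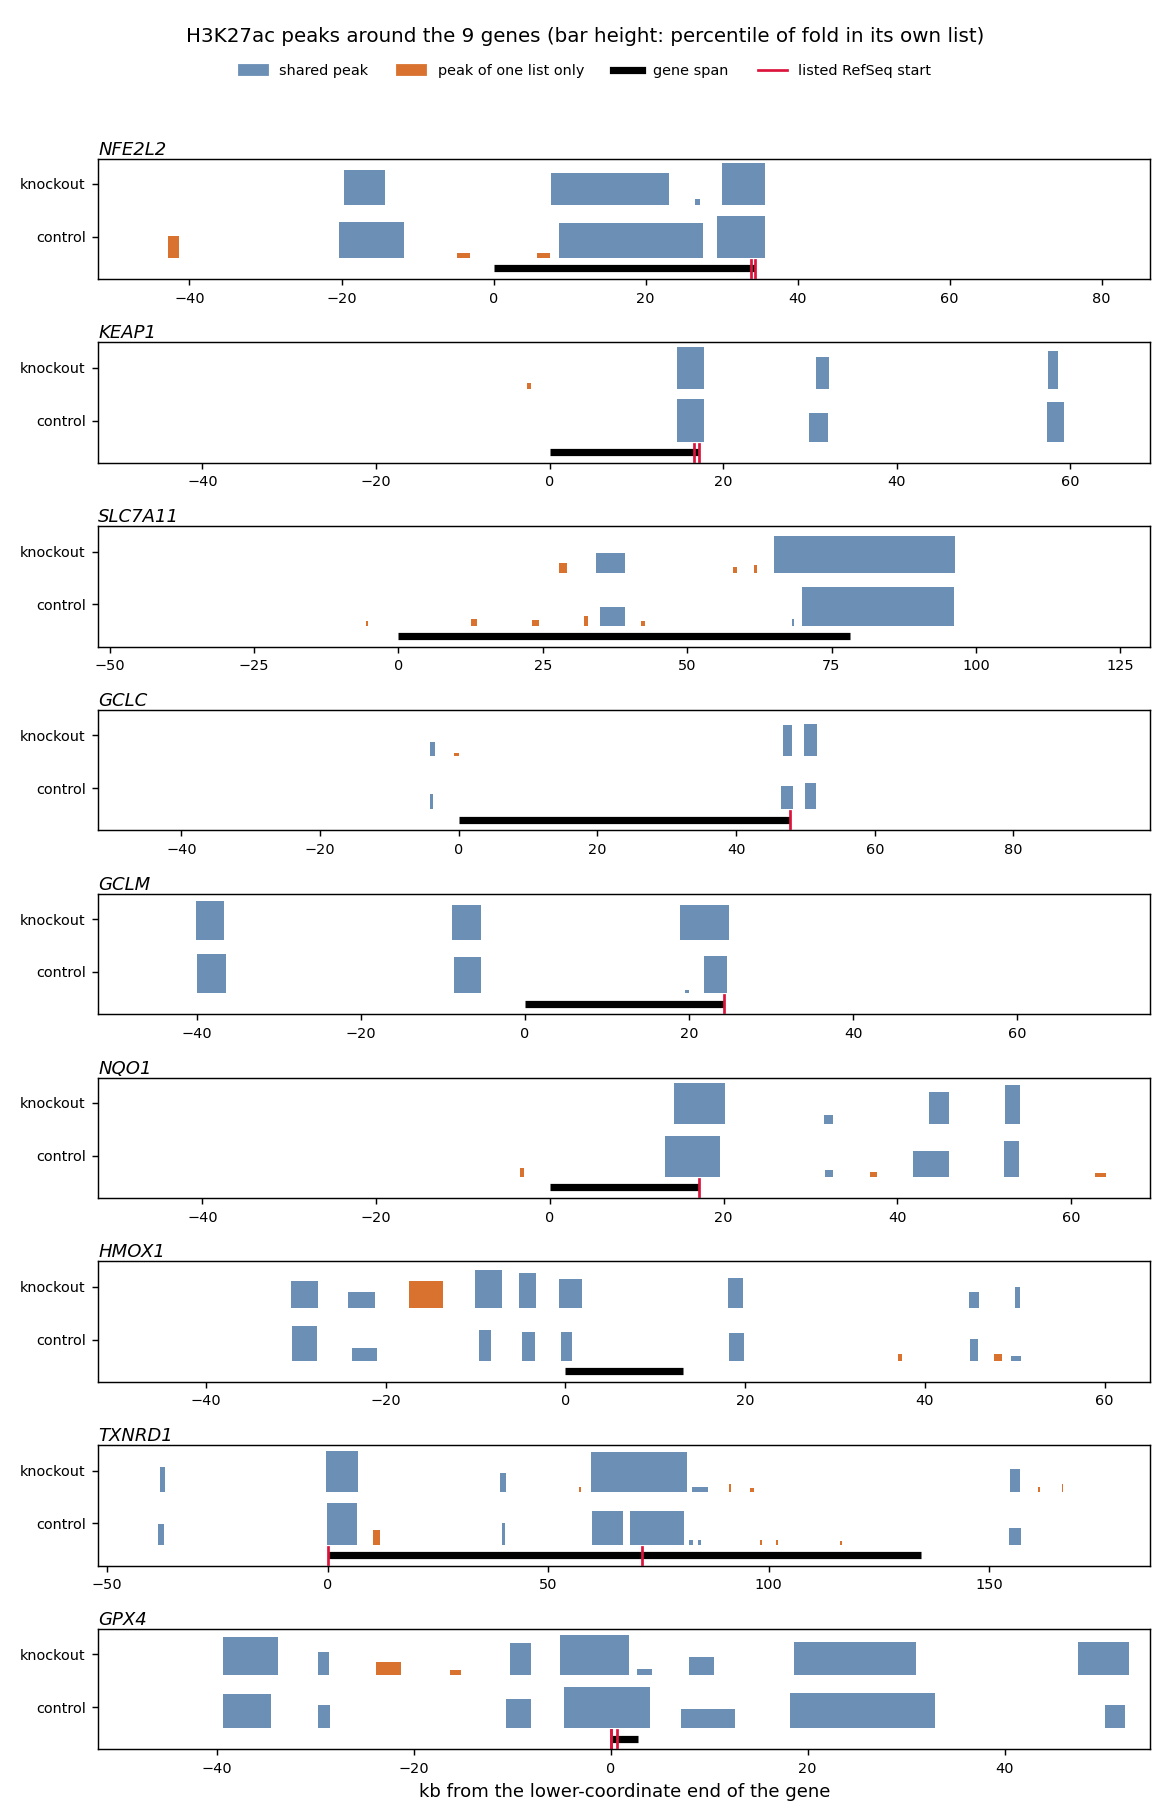
Peaks around each of the 9 genes, with the ARID1A knockout list above the control list in each panel; the x axis is distance in kb from the lower-coordinate end of the gene, bar width is peak width (drawn at least 0.4 kb wide), bar height is the percentile of the peak's fold within its own list, the black line is the gene span and red ticks are listed RefSeq starts. The tallest bar lies over a gene start or end in both lists at NFE2L2, KEAP1, SLC7A11, NQO1, TXNRD1 and GPX4, and away from it in both lists at GCLC, GCLM and HMOX1. Peaks of 1 list only are mostly short and narrow, apart from a knockout-only peak of 3.74 kb at HMOX1.

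Among the effector enzymes, NQO1 (chromosome 16, 69709401 to 69726560, minus strand), a quinone reductase widely used as a reporter of NRF2 activity, had its strongest peak over the start. It measured 5.89 kb in the knockout list (69723697 to 69729585, pileup 203, fold 24.0, percentile 97.8) and 6.34 kb in the control list (69722619 to 69728961, pileup 106, fold 18.0, percentile 97.0). NQO1 had no knockout-only peak and 3 control-only peaks with folds of 2.92 (69705976 to 69706381, pileup 13.8), 2.50 (69746233 to 69747037, pileup 9.93) and 2.305 (69772209 to 69773461, pileup 10.9). None of the 3 lay in the gene, and the gene closest to each was NFAT5, NOB1 or WWP2. The start peak was therefore the only peak in either list for which NQO1 was the closest protein-coding gene.

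HMOX1 (chromosome 22, 35381096 to 35394207), haem oxygenase 1, had the highest ratio between the lists in the length of sequence under its nearest peaks. The gene is known, in mouse, for enhancers upstream of its start that hold several antioxidant response elements and also bind the repressor BACH1. The peak over the lower-coordinate end was 2.55 kb wide in the knockout list (35380347 to 35382891, pileup 49.5, fold 7.73) and 1.19 kb wide in the control list (35380638 to 35381829, pileup 29.3, fold 7.15). Its fold stood at percentile 64.4 of the knockout list and 64.1 of the control list.

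Outside that end lay 2 further shared peaks for which HMOX1 was the closest gene. The nearer, 3.26 kb from the gene in the knockout list, was 1.96 kb wide there (35375874 to 35377836, pileup 81.7, fold 12.3) and 1.43 kb wide in the control list (35376268 to 35377698, pileup 31.5, fold 7.36). The farther, 7.11 kb from the gene in the knockout list, was 2.92 kb wide there (35371061 to 35373984, pileup 88.7, fold 15.2) and 1.34 kb wide in the control list (35371444 to 35372782, pileup 31.4, fold 8.43). In all 3 places the control peak lay wholly inside the knockout peak.

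Further out in the same direction, 13.7 kb from HMOX1, lay a knockout-only peak of 3.74 kb (35363675 to 35367412, pileup 38.8, fold 7.00, −log10 q 24.6). At percentile 60.7 it was the only peak of 1 list alone at the 9 genes in the upper 50% of its list, and the nearest control peak was 3.57 kb away. The other genotype-only peaks of the window were control-only and weak, and lay inside the RefSeq span of MCM5, a replication helicase gene: 35418085 to 35418595 (pileup 6.61, fold 2.75) and 35428811 to 35429681 (pileup 7.00, fold 2.72). The highest fold of the control window, 10.2 (35350674 to 35353488, pileup 49.3), belonged to a shared peak closest to TOM1, an endosomal trafficking gene, where the knockout peak had a fold of 7.14 (35350503 to 35353523, pileup 37.5).

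TXNRD1 (chromosome 12, 104215779 to 104350307, plus strand), cytosolic thioredoxin reductase, was acetylated at both listed starts. Over the upstream start lay a peak of 7.22 kb in the knockout list (104215486 to 104222703, pileup 187, fold 21.1) and of 6.63 kb in the control list (104215707 to 104222339, pileup 121, fold 22.5). Over the downstream start the knockout list had 1 peak of 21.7 kb (104275437 to 104297182, pileup 153, fold 18.4). The same stretch held 2 control peaks, of 6.87 kb (104275812 to 104282683, pileup 64.0, fold 9.68) and 12.3 kb (104284365 to 104296615, pileup 61.5, fold 9.83), of which the second covered the start. A weak knockout peak of 3.52 kb next to it (104298451 to 104301970, fold 2.41) likewise overlapped 2 weak control peaks.

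TXNRD1 also had the most peaks of 1 list alone in the knockout list, all of them weak. The 5 knockout-only peaks had pileups of 11.3 to 17.1. They lay at 104272749 to 104273313 (fold 2.36), 104306766 to 104307183 (2.75), 104311423 to 104312319 (2.24), 104376872 to 104377232 (2.37) and 104382171 to 104382397 (2.73). The 4 control-only peaks had pileups of at most 16.8. They lay at 104226117 to 104227755 (fold 3.47), 104313726 to 104314270 (2.45), 104317356 to 104317697 (2.48) and 104331957 to 104332428 (2.37). The 2 knockout-only peaks outside the gene span were the narrowest of the 13 knockout-only peaks, at 361 and 227 bp.

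GPX4 (chromosome 19, 1103994 to 1106779, plus strand), the glutathione peroxidase that reduces lipid hydroperoxides, lay wholly inside 1 control peak. That control peak measured 8.76 kb (1099237 to 1107992, pileup 75.4, fold 18.3, percentile 97.3). In the knockout list a peak of 6.92 kb (1098885 to 1105806, pileup 172, fold 20.5, percentile 95.4) covered all 3 listed starts, and a weak peak of 1.43 kb (1106716 to 1108148, pileup 13.0, fold 2.64) covered the 3′ end. The 2 knockout-only peaks of the window lay nearer to other genes, at ARHGAP45 (1080168 to 1082709, pileup 17.7, fold 3.47) and POLR2E (1087688 to 1088782, pileup 11.6, fold 2.53). The window also held a shared peak of 12.4 kb in the knockout list and 14.7 kb in the control list closest to SBNO2, a transcriptional regulator gene next to GPX4.

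Over all 9 genes, 13 of 54 knockout peaks (24.1%, exact Clopper-Pearson 95% interval 13.5 to 37.6) were knockout-only, against 22.4% of the whole knockout list. Of the control peaks, 17 of 60 (28.3%, interval 17.5 to 41.4) were control-only, against 18% of the whole control list. Both intervals contain the value of the whole list and cover counting error only, and peaks of 1 locus are not independent. The genotype-only peaks were mostly weak, as they were over the whole lists. Of the knockout-only peaks, 12 of 13 lay in the lower 50% of their list by fold, against 8805 of 9526 over the whole list. All 17 control-only peaks lay in the lower 50% of theirs, against 6852 of 7155 over the whole list. In that lower 50%, 12 of 23 knockout peaks of the genes were knockout-only, against 41.4% of the list. There, 17 of 31 control peaks were control-only, against 34.4% of the list. In the upper 50%, 1 of 31 knockout peaks was knockout-only, against 3.39% of the list. There, 0 of 29 control peaks were control-only, which allows a share of up to 10.3%, against 1.52% of the list. Both counts depend on the peak threshold: with a −log10 q of at least 5 in both lists, 5 knockout-only and 1 control-only peaks were left, and this threshold removes more of the control list.

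**Figure D3:**
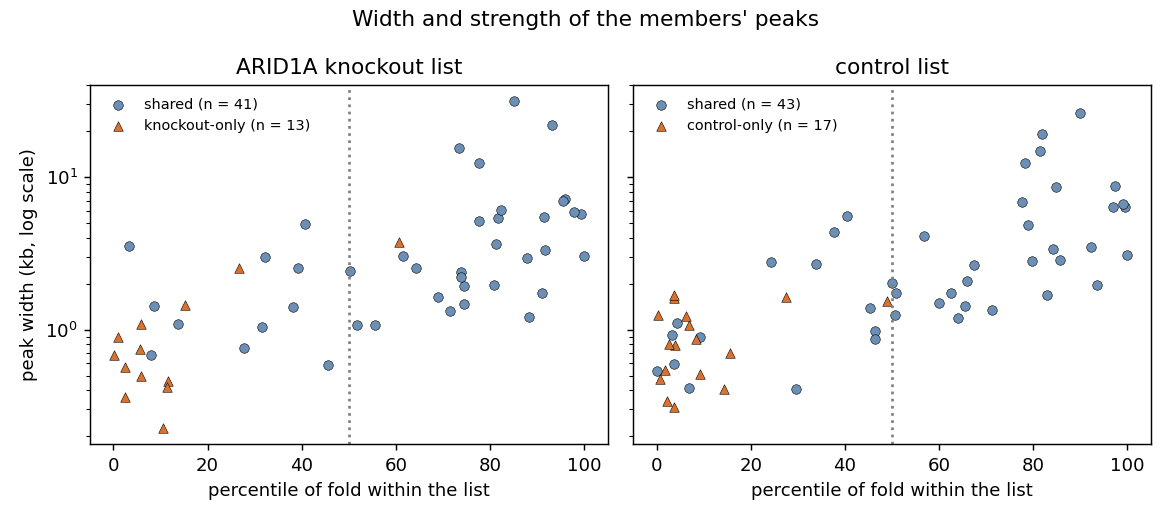
Width (y axis, kb, log scale) against the percentile of fold within the list (x axis, percent) for the peaks of the 9 genes, in the ARID1A knockout list on the left and the control list on the right; circles are shared peaks, triangles peaks of that list only, and the dotted line is percentile 50. All triangles but 1, the knockout-only peak at HMOX1, lie left of the line.

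Shared and genotype-only peaks also differed in width. In the knockout list the median width was 2545 bp for the 41 shared peaks and 678 bp for the 13 knockout-only peaks. In the control list it was 2632 bp for the 43 shared peaks and 805 bp for the 17 control-only peaks. Peaks that overlapped several peaks of the other list, wholly or in part, numbered 4 of 54 in the knockout list (at SLC7A11 and GCLM, and 2 at TXNRD1), against 1.43% of that whole list. In the control list they numbered 2 of 60 (at NFE2L2 and GPX4), against 2.23% of that whole list. All of the peaks in the windows summed to 202 kb in the knockout list and 200.2 kb in the control list, and 80.2% of the knockout length was covered by control peaks and 81.0% of the control length by knockout peaks. Over the whole lists these shares were 75.9% of knockout length and 78.2% of control length.

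The direction of the difference in length varied among the genes. The start peak was wider in the knockout list at SLC7A11, GCLM, HMOX1 and TXNRD1 (at both of its listed starts), and wider in the control list at the other 5 genes. A sum over the peaks for which a gene was the closest protein-coding gene within 50 kb, a measure chosen after the values had been seen, gave 11.2 kb at HMOX1 in the knockout list (4 peaks) and 3.96 kb in the control list (3 peaks), a ratio of 2.82. Of 14539 genes with such peaks in both lists, 5.06% had a ratio of at least 2 and 6.31% a ratio of at most 0.5, with a median ratio of 0.97. GCLM came next at 1.79 (6.04 kb in the knockout list and 3.39 kb in the control list), and NFE2L2 was lowest at 0.80 (21.8 kb in the knockout list and 27.1 kb in the control list). The other 6 genes lay between 0.93 and 1.28. With all peaks of the 50 kb window counted, including those nearer to TOM1 and MCM5, the HMOX1 ratio was 1.39. Summed length depends on where the caller ended and joined peaks in each list, and whether the sequencing depth of a list moved it was not tested.

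**Figure D4:**
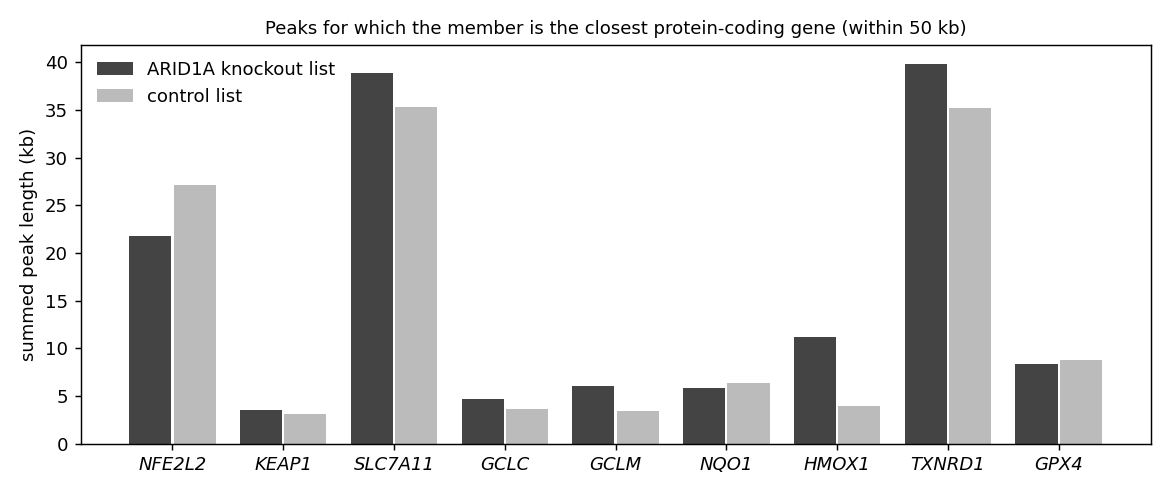
Summed length (y axis, kb) of the peaks for which each gene (x axis) was the closest protein-coding gene within 50 kb, with the ARID1A knockout list as the dark bar on the left of each pair and the control list as the light bar; each bar is 1 sum from 1 list, without replicates. The dark bar is the taller at 6 genes, with the widest relative gap at HMOX1 (11.2 kb in the knockout list and 3.96 kb in the control list).

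In the wider network of antioxidant genes, most starts were acetylated in both genotypes. Of 79 further genes in 7 lists, 75 had a peak at the start (or, with no listed start, at a gene end) in both lists, 1 in the knockout list alone and 3 in neither. Among the 62 with a listed start, 59 had a peak there in both lists and 2 in neither, against 63.7% in both and 33.5% in neither over all genes with a listed start. The order of the genes by start fold differed between the lists in places, and genes are named here by their fold in the knockout list. All 11 sensor, repressor and partner genes of NRF2 had one in both, with the highest knockout folds at SQSTM1, a selective autophagy receptor that binds KEAP1 (fold 28.6 in the knockout list and 22.6 in the control list), and the small MAF gene MAFK (24.1 in the knockout list and 14.9 in the control list). So did all 12 thioredoxin and peroxiredoxin genes, with the highest knockout folds at PRDX5 (fold 25.6 in the knockout list and 20.7 in the control list) and TXN, thioredoxin itself (23.1 in the knockout list and 11.5 in the control list).

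All 10 genes of haem and iron handling had a start peak in both lists, with the highest knockout folds at the ferritin genes FTL (fold 32.2 in the knockout list and 22.8 in the control list) and FTH1 (30.6 in the knockout list and 16.2 in the control list). Ferritin genes have many pseudogene copies, so reads there may be shared. All 7 genes of NADPH production did as well, with the highest knockout folds at TALDO1 (fold 18.5 in the knockout list and 9.64 in the control list) and TKT (16.2 in the knockout list and 7.88 in the control list), both of the pentose phosphate pathway.

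The remaining lists held the exceptions. In glutathione synthesis, import and recycling, 9 of 10 genes had a start peak in both lists, with the highest knockout folds at SLC3A2, the heavy chain that partners SLC7A11 (fold 22.5 in the knockout list and 19.0 in the control list), and CHAC1, which degrades glutathione (15.8 in the knockout list and 15.9 in the control list). CBS, an enzyme that makes cystathionine, had none in either list. In superoxide, peroxide and lipid peroxide handling, 11 of 12 genes did, with the highest knockout folds at GPX1 (fold 20.4 in the knockout list and 12.7 in the control list) and ACSL4, a lipid ligase of ferroptosis (19.1 in the knockout list and 13.8 in the control list), and GPX2 had none. Among glutathione transferases and detoxification genes, 15 of 17 did, with the highest knockout folds at UGDH (fold 19.3 in the knockout list and 17.4 in the control list) and the transporter gene ABCC1 (18.3 in the knockout list and 14.6 in the control list), and ALDH3A1 had none. In the control list the highest start fold of these genes was that of GSTM3, a glutathione transferase gene named after its values were seen (11.4 in the knockout list and 18.1 in the control list).

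The one gene with a start peak in the knockout list alone was AKR1C1, an aldo-keto reductase gene known as a target of NRF2. The peak was 250 bp wide (chromosome 10, 4962846 to 4963095) with a pileup of 8.12 and a fold of 2.64, at percentile 8.66 of the list, and lay 0.32 kb from the start. The nearest control peak was 15.1 kb away. AKR1C1 has close copies beside it, so reads there may be shared between copies. With a −log10 q of at least 5 this peak was lost, and ABCG2, a drug efflux transporter gene, became the one gene with a start peak in the knockout list alone.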

How the data were processed

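Chromatin of MDA-MB-231 cells was digested with micrococcal nuclease and immunoprecipitated, per the labels' protocols. The submitters' processing notes name Bowtie2 2.3.5.1, MACS2 2.2.6 and the genome build hg38. Options, filters, library depth and any pooling of replicates are not given in the sources used here. The authors' deposited lists, by their headers, give each peak's position (1-based), its width in bp (another value, end minus start plus 1), the pileup (a coverage signal), the fold enrichment (a ratio) and the −log10 q-value. The peak names began with B-2 in the knockout list and A-1 in the control list, whose meaning was not stated.

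Only peaks of chromosomes 1 to 22 and X entered. Gene spans came from RefSeq (GRCh38.p14, the assembly of hg38), as did strands, starts and promoter sequences. Overlap counting (Python 3.11.15, pandas 2.3.3, numpy 2.4.6; intervals by scipy 1.17.1; figures by matplotlib 3.10.9) was tested on simulated intervals. The window was 50 kb, the start window 1 kb either side, and the promoter motif TGACNNNGC. Alternatives changed the window, overlap, peak threshold, assignment and motif. All 9 genes were named, with their start peak, their strongest peak and every peak of 1 list only. For the wider lists the genes without a start peak in both lists were named, and the 2 per list with the highest fold in the knockout list. The genes and lists were chosen with earlier results of these data known.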

Additional observations from a re-analysis of the deposited data

How the results depend on the processing

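With 1 list per genotype no replicate could be left out and no result has a test. No paired analysis was possible because each genotype has a single peak list and no result comes from a test. The counts followed the window. With 10 kb either side there were 24 shared and 8 knockout-only peaks in the knockout list. The control list then had 26 shared and 12 control-only peaks. With 100 kb there were 69 shared and 21 knockout-only peaks in the knockout list, and 70 shared and 22 control-only peaks in the control list. Summed lengths with 100 kb were 308 kb in the knockout list and 319 kb in the control list. A −log10 q of at least 5 left 5 knockout-only peaks and 1 control-only peak, and 87.2% of knockout and 97.2% of control peaks were shared. With both lists restricted to the upper 50% by fold, these values were 3 knockout-only and 0 control-only peaks, with 90.3% of knockout and 100% of control peaks shared. Peaks whose closest protein-coding gene was one of the 9 were also counted alone. This left 22 shared and 11 knockout-only peaks in the knockout list, and 24 shared and 10 control-only peaks in the control list. Why the shared shares moved was not tested. The overlap alternatives, the start windows and the longer motif moved no count by more than 1.5 times. The ratio of summed length at HMOX1, and its alternatives, were chosen after seeing the data: it was 2.82 also with a −log10 q of at least 5 or with 100 kb, and 1.39 over all peaks of the 50 kb window. At the edge of the 50 kb window, the last knockout peak inside lay 44.6 kb from GPX4 (fold 11.2) and the first outside 51.6 kb from HMOX1 (fold 3.77). The last control peak inside lay 47.4 kb from GPX4 (fold 5.19) and the first outside 50.2 kb from HMOX1 (fold 3.62).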

Other observations

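Besides the 9 genes, their windows touched 17 other protein-coding genes. Of these, 13 had a listed start, and all 13 had a peak there in both lists, against 63.7% of all protein-coding genes with a listed start. Among them were the ribonucleoprotein gene HNRNPA3 beside NFE2L2 and the RNA polymerase II subunit gene POLR2E beside GPX4. The others were scored at both gene ends, and of these NFAT5, ATG4D and MCM5 had one there in either genotype. EID3, which lies inside TXNRD1, had none in either list. The promoter letters TGACNNNGC were present in 20 of 93 windows of the wider antioxidant lists, which came from 62 genes with a listed start, against 13.4% of all windows.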
